A study of Mus musculus with 8 samples.

Results

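Cyclin-dependent kinase (CDK) inhibitors are the proteins that hold senescent cells out of the cell cycle, and the genes described here are the 7 CDK inhibitor genes Cdkn1a, Cdkn1b, Cdkn1c, Cdkn2a, Cdkn2b, Cdkn2c and Cdkn2d, the tumour suppressor genes Trp53 and Rb1, and the nuclear lamina gene Lmnb1. They were chosen by name, and every array probe set whose only gene symbol in the platform annotation was one of the 10 was used. For 9 of the 10 genes this gave 13 probe sets, out of 45037 probe sets and 18193 genes in all, and Trp53 is not analysed here. The question was whether the inhibitors themselves were higher at 14 months, apart from secreted factors.

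The samples were total RNA of the distal trachea and carina, the point where the airway divides, of female C57Bl/6 mice. Old mice (1, 2, 5 and 6) were 14 months of age and young mice (3, 4, 7 and 8) 2 months, each mouse on 1 Affymetrix Mouse Genome 430 2.0 array. No transgene, deletion or treatment is named for either age. The tissue is a mixture of epithelium, cartilage, smooth muscle and immune cells, so fewer cells of a type and less RNA per cell cannot be told apart in any value below.

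Inhibitors of the INK4 family (p16Ink4a from Cdkn2a, p15Ink4b from Cdkn2b, p18Ink4c from Cdkn2c and p19Ink4d from Cdkn2d) bind CDK4 and CDK6, whereas those of the Cip/Kip family (p21 from Cdkn1a, p27 from Cdkn1b and p57 from Cdkn1c) bind a wider range of cyclin-CDK complexes. Both keep the retinoblastoma protein, the product of Rb1, in the form that holds E2F factors and silences genes of DNA replication. The p53 protein, the product of Trp53, induces Cdkn1a after DNA damage. The Cdkn2a locus also encodes, from another first exon, p19Arf, which stabilises p53. In cultured cells that enter senescence p16 and p21 accumulate and lamin B1, the product of Lmnb1, is lost.

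Sequences around annotated starts are shown for 4 of the inhibitors. Cdkn1a and Cdkn2a were taken because they are the usual markers of senescence. Cdkn1b and Cdkn2d were taken because old and young signals did not overlap at the brightest probe set of each. The sequences come from RefSeq promoter windows of build GRCm38.p6, which reach from 250 bases before a start to 50 after it. Windows were found for 7 of 9 genes searched, 10 windows in all, and none was in the table for Cdkn1c and Rb1. The capitals mark CATG, any 6 bases and CATG in Cdkn1a, the core of a p53 element. In Cdkn2a they mark 1 of 4 E2F-like words searched (TTTCCCGC, TTTGGCGC, TTTCGCGC and TTTGCCGC), in Cdkn1b the CCAAT box and in Cdkn2d the GC box (GGGCGG). Each was searched on both strands, so the reverse complement is in capitals too.
Cdkn1a (chr17:29090908-29090967, plus strand): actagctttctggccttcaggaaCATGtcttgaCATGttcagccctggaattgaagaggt
Cdkn2a (chr4:89294685-89294744, minus strand): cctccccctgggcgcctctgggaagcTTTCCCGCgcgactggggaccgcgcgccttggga
Cdkn1b (chr6:134920151-134920450, plus strand): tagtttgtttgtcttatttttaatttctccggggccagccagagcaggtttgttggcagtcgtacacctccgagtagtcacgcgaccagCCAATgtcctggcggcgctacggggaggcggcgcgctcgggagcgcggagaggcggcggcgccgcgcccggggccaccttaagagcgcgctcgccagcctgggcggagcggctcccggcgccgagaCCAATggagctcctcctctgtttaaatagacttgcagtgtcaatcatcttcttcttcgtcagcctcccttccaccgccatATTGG
Cdkn2d (chr9:21291160-21291459, minus strand): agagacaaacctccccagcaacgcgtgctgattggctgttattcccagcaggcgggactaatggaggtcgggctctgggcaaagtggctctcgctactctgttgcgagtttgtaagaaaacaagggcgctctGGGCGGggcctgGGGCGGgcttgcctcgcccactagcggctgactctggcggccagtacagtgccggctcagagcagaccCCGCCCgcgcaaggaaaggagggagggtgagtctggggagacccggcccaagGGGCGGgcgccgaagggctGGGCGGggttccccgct
The paired CATG was in 0.712% of all 32851 windows of this length and in 1 of the windows above, 1 of a pair for Cdkn1a. An E2F-like word was in 2.26% of all windows and in 1 of the pair for Cdkn2a. That 1, shown above, is at the upstream start, and the window of the downstream start (chr4:89282143-89282442) held no such word. The starts of the p16 and p19Arf transcripts were not told apart, so the word is not placed at the p16 start. CCAAT, with 3 matches in Cdkn1b, was in 37.4% of all windows, and GGGCGG, with 5 matches in Cdkn2d, in 35.7%. A match is a description of the letters and not a site of binding.

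Values are linear array signals in arbitrary units, and a log2 fold change is the mean log2 signal of old minus that of young mice. A probe set passed where limma's moderated test, adjusted over all probe sets by Benjamini-Hochberg, gave a p under 0.05. None of the 13 probe sets passed an adjusted p under 0.05 over all probe sets, against a background of 0.0711% of all probe sets. Of them 2 reached an unadjusted p under 0.05, Cdkn1c with higher and Cdkn1b with lower signal in old mice, where 11.2% of all probe sets reached it. In 3 of the 13 the ages did not overlap (Cdkn1c above, Cdkn1b and Cdkn2d below), against 7.8% of all probe sets. The log2 fold change was positive in 4 and negative in 9, with a median of -0.058, against -0.0062 over all probe sets.

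**Figure D1:**
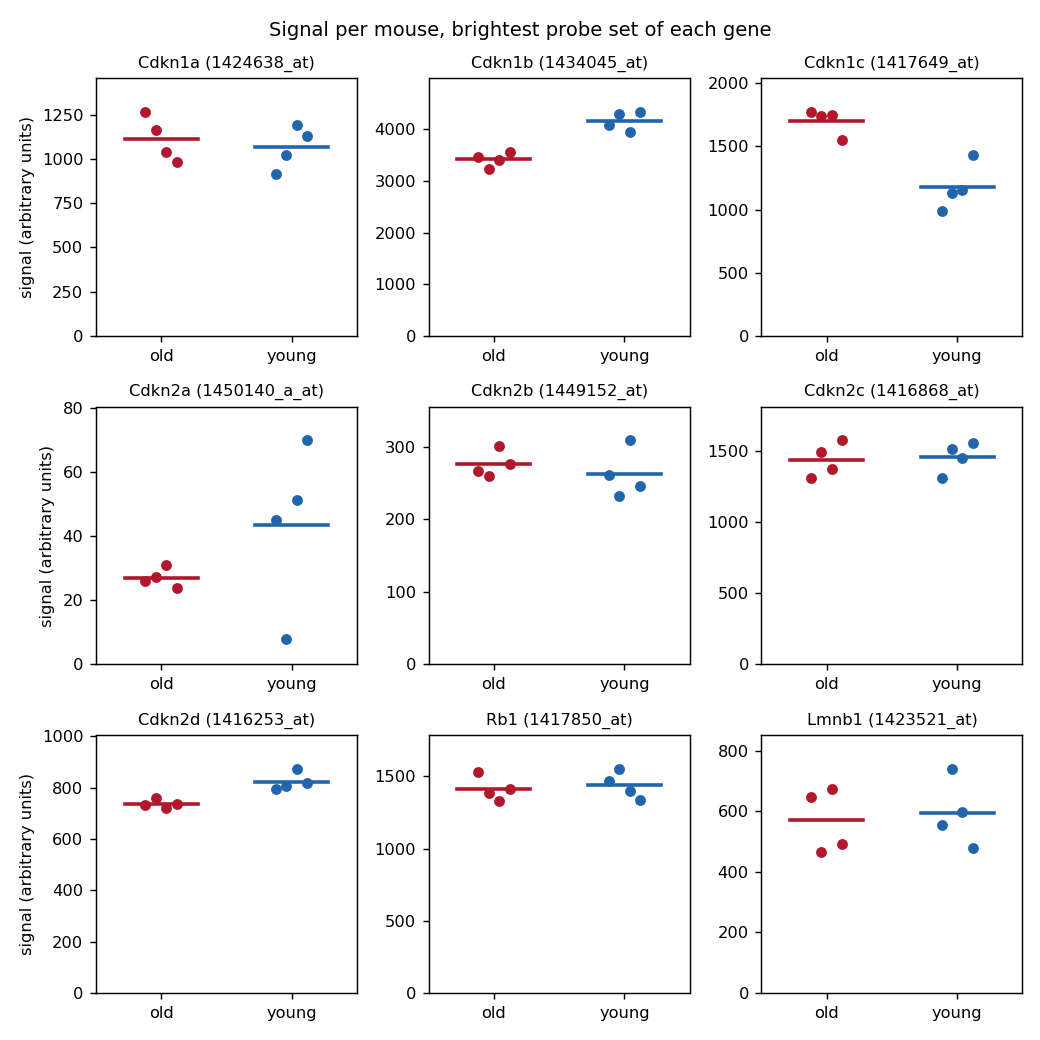
Signal (arbitrary units, linear axis from 0) of the brightest probe set of 9 genes in 4 old (14 month) and 4 young (2 month) mice. Points are mice and lines are means, and the ages do not overlap for Cdkn1c (old above), Cdkn1b and Cdkn2d (old below).

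Of the Cip/Kip family, Cdkn1c differed most between ages. The p57 protein it encodes acts in embryonic development and in quiescent stem cells, and the gene is imprinted and expressed from the maternal allele. Its probe set had signals of 1772, 1742, 1751 and 1553 in old mice 1, 2, 5 and 6, against 990, 1135, 1152 and 1434 in young mice 3, 4, 7 and 8. All 4 old mice were above all 4 young mice, with old mouse 6 and young mouse 8 nearest to each other. The means were 1705 ± 102 in old and 1178 ± 186 in young mice (SD, n = 4 each), and the ratio of the geometric means was 1.46. On the log2 scale old minus young was 0.54 (standard error 0.13, 95% interval 0.25 to 0.84), with an adjusted p of 0.192 by limma. An exact two-sided permutation test gave p = 0.0286, the smallest that 4 against 4 mice allow. Every probe set whose ages do not overlap gets this p, and 7.8% of all probe sets did not overlap. Under a trended and robust variance prior the adjusted p was 0.0309, where 1.23% of all probe sets passed. With the fit kept to probe sets above the median signal it was 0.0422, where 2.21% passed. Over 17 alternatives, which left out a mouse or changed the processing, the adjusted p by limma was 0.0309 to 0.361.

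Cdkn1b encodes p27, which holds cells in quiescence. Its brighter probe set (1434045_at) had signals of 3473, 3233, 3414 and 3564 in old mice 1, 2, 5 and 6, against 4083, 4307, 3939 and 4336 in young mice 3, 4, 7 and 8. All 4 old mice were below all 4 young mice. The means were 3421 ± 140 in old and 4166 ± 189 in young mice (SD, n = 4 each), a difference of -17.9%. Its difference was -0.28 on the log2 scale (standard error 0.078, 95% interval -0.47 to -0.10, adjusted p = 0.258 by limma, exact permutation p = 0.0286). The permutation p only restates that the ages did not overlap. By limma the adjusted p was 0.0470 under the trended prior, and it was 0.0470 to 0.456 over 17 alternatives. The other probe set (1419497_at) overlapped between ages, at 176 ± 36.1 in old and 192 ± 33.9 in young mice (SD, n = 4 each). Its log2 fold change of -0.13 had a 95% interval of -0.60 to 0.33, and it was 0.028 with old mouse 5 left out and -0.035 with young mouse 4 left out.

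Cdkn1a, whose product p21 is the inhibitor that p53 induces, did not separate the ages. The brighter probe set (1424638_at) gave 1264, 1163, 1037 and 984 in old mice 1, 2, 5 and 6, against 913, 1022, 1190 and 1131 in young mice 3, 4, 7 and 8. The highest signal was in old mouse 1 and the lowest in young mouse 3, and the other mice of both ages were interleaved. The fitted difference was 0.064 on the log2 scale (95% interval -0.23 to 0.35, adjusted p = 0.890 by limma), an interval that reaches from 0.855-fold to 1.28-fold. Leaving out old mouse 1 gave -9.2e-05 and leaving out young mouse 3 gave -0.0073. The dimmer probe set (1421679_a_at) gave 398, 377, 289 and 376 in these old mice, against 374, 199, 273 and 377 in the young mice. Its log2 fold change was 0.27 (95% interval -0.26 to 0.80), and young mouse 4 was the lowest of the 8.

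In the INK4 family the probe set of Cdkn2a, the gene of p16, was among the dimmest of the members. It gave 26.1, 27.2, 30.9 and 23.9 in old mice 1, 2, 5 and 6, against 45.0, 7.89, 51.3 and 69.9 in young mice 3, 4, 7 and 8. The 4 old mice lay within a narrow range, below 3 of the young mice and above young mouse 4. The log2 fold change was -0.32, and its 95% interval of -1.81 to 1.17 spans a 0.286-fold to a 2.25-fold ratio (adjusted p = 0.894 by limma). It was -1.02 without young mouse 4 and 0.033 without young mouse 8. All 4 old mice and young mouse 4 were under a signal of 32. With signals under 32 raised to 32 the log2 fold change was -0.57 (adjusted p = 0.341 by limma). Only 15.4% of all probe sets had a lower mean log2 signal. The suffix of the probe set (1450140_a_at) marks a design against several transcripts of a gene, and the p16 and p19Arf transcripts were not told apart here.

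Cdkn2b, the neighbour of Cdkn2a whose product p15 is induced by TGF-beta, was measured at a brighter signal. It gave 267, 260, 301 and 277 in old mice 1, 2, 5 and 6, against 261, 233, 309 and 245 in young mice 3, 4, 7 and 8. The ages overlapped, with a log2 fold change of 0.083 (95% interval -0.18 to 0.34, adjusted p = 0.834 by limma). It was 0.028 with young mouse 4 left out and 0.16 with young mouse 7 left out. Cdkn2c, the gene of p18, gave 1304, 1489, 1374 and 1570 in old mice, against 1304, 1509, 1449 and 1556 in young mice. These ranges were almost the same, with a log2 fold change of -0.021 and a 95% interval of -0.25 to 0.21, or 0.840-fold to 1.16-fold.

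Cdkn2d, the gene of p19Ink4d, was the other inhibitor whose old mice were all below the young mice. It gave 733, 762, 721 and 736 in old mice 1, 2, 5 and 6, against 795, 808, 873 and 817 in young mice 3, 4, 7 and 8. The spread within each age was small, at 738 ± 17.2 in old and 823 ± 34.2 in young mice (SD, n = 4 each). The fitted difference was -0.16 on the log2 scale (standard error 0.074, 95% interval -0.33 to 0.015), with an adjusted p of 0.489 by limma. The exact permutation p of 0.0286 only restates that the ages did not overlap. The within-age SD of this probe set was 0.048 on the log2 scale, the smallest of the 13.

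Rb1, the gene of the pocket protein that the inhibitors protect from phosphorylation, gave 1528, 1387, 1329 and 1410 in old mice 1, 2, 5 and 6 at its brighter probe set (1417850_at). Young mice 3, 4, 7 and 8 gave 1468, 1551, 1396 and 1336. The ages overlapped throughout, with a log2 fold change of -0.024 and a 95% interval of -0.23 to 0.18. A second, dim probe set (1444400_at) gave 37.2 ± 20.6 in old and 50.5 ± 9.48 in young mice (SD, n = 4 each), or -0.70 on the log2 scale with an interval of -1.99 to 0.58. Old mouse 6 was at 9.17, against 34.4 to 54.2 in the other old mice, and the difference was -0.12 without it and -0.25 with signals under 32 raised to 32.

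Lmnb1, the gene of lamin B1, did not separate the ages at either of its probe sets. The brighter (1423521_at) gave 646, 467, 673 and 493 in old mice 1, 2, 5 and 6, against 556, 740, 597 and 479 in young mice 3, 4, 7 and 8. High and low mice were found at both ages. The difference of -0.058 on the log2 scale (adjusted p = 0.936 by limma) had a 95% interval of -0.48 to 0.36, from 0.719-fold to 1.28-fold. The dimmer (1423520_at) gave 117 ± 38.3 in old and 127 ± 13.7 in young mice (SD, n = 4 each), or -0.17 on the log2 scale with an interval of -0.71 to 0.37. Leaving out old mouse 2 gave -0.0032 here, and leaving out old mouse 1 gave -0.35.

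**Figure D2:**
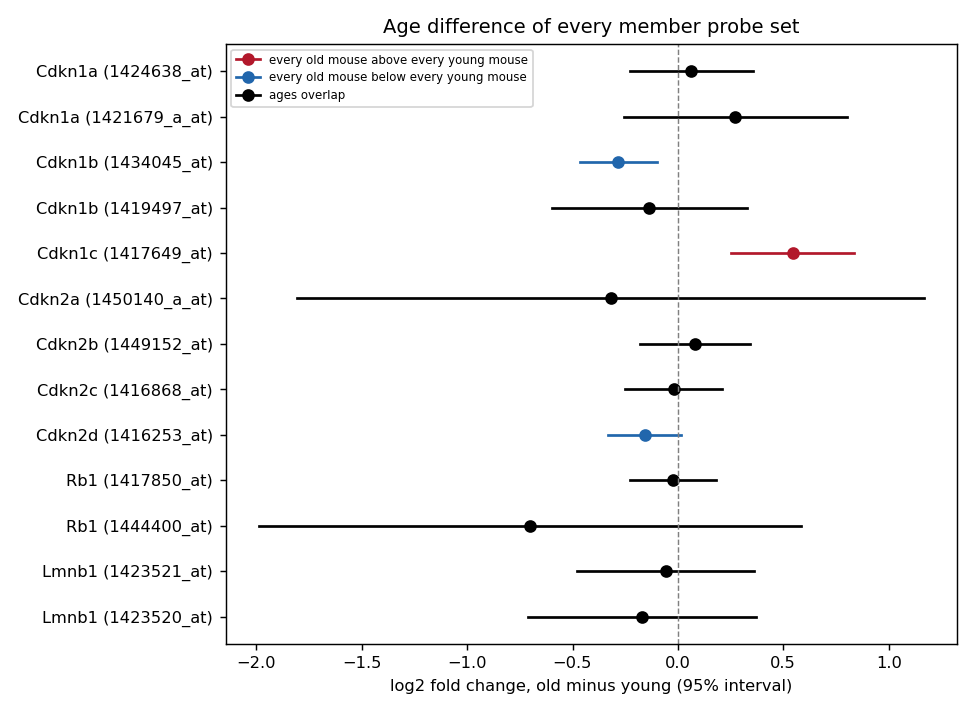
Log2 fold change (old minus young, x axis) of all 13 probe sets with limma's 95% intervals as bars. The intervals of Cdkn1c (0.25 to 0.84) and of 1 probe set of Cdkn1b (-0.47 to -0.10) do not reach 0, and those of the dim probe sets of Cdkn2a and Rb1 are the widest.

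Within-age spread differed between bright and dim probe sets of the array. In the brighter part of all probe sets, divided at their median of 151, the median within-age SD was 0.157 on the log2 scale, and in the dimmer part 0.491. Of the members, 10 were in the brighter part and 3, those of Cdkn2a and the second ones of Rb1 and Lmnb1, in the dimmer part. The 8 arrays had median signals of 150 to 161, and log2 signals correlated at 0.951 to 0.958 between mice of 1 age and at 0.947 to 0.952 between ages. The array as a whole had 24 probe sets with higher and 8 with lower signal in old mice that passed. Markers of airway epithelium were bright at both ages, with a summed signal of 73727 to 85458 in old and 74651 to 81209 in young mice over 8 genes. Most of this sum was from Scgb1a1 and Scgb3a1. At an unadjusted p under 0.05, Krt8 and Krt5 were higher and none of the 8 was lower. Krt8 was at 0.33 and Krt5 at 0.31 on the log2 scale, each with all old above all young mice. Neither passed over genes (adjusted p = 0.181 and 0.192 by limma). The median of the 8 was -0.030.

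Genes upstream and downstream of the inhibitors were read at the brightest probe set of each gene, where 0.55% of 18193 genes passed an adjusted p under 0.05. Of all genes, 7.31% were higher and 7.28% lower at an unadjusted p under 0.05. The old mice were all above the young mice in 5.02% and all below in 5.11%, and the median log2 fold change was -0.0047. The adjusted p of the members above were over probe sets and differ from those over genes. Over genes Cdkn1c, Cdkn1b and Cdkn2d had an adjusted p of 0.106, 0.118 and 0.298 by limma. All 3 reached an unadjusted p under 0.05 there, Cdkn1c higher and the others lower. The 95% interval of Cdkn2d was -0.30 to -0.014 in that fit.

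Of 22 p53 target genes other than Cdkn1a, 20 were measured (Bax and Gdf15 were not), and 1 passed. This was Pmaip1, which encodes the pro-apoptotic protein Noxa. It rose to 172, 155, 164 and 232 in old mice 1, 2, 5 and 6, against 84.0, 95.5, 102 and 75.9 in young mice 3, 4, 7 and 8, with no overlap. The probe set was in the dimmer part, and the difference was 1.01 on the log2 scale (standard error 0.15, adjusted p = 0.0445 by limma). Leaving out any 1 of the 8 mice ended this call, with adjusted p from 0.0582 to 0.127, and it passed under 5 of 17 alternatives in all. There were 3 targets higher and 2 lower at an unadjusted p under 0.05. Besides Pmaip1 the smallest p were those of Eda2r, a receptor of the TNF receptor family, Tnfrsf10b, a death receptor, and Fas, another death receptor. Their log2 fold changes were -0.34, -0.48 and 0.53 (adjusted p = 0.264, 0.276 and 0.286), and averaging the probe sets of Tnfrsf10b gave 0.15. The median over the 20 targets was -0.089.

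Of 14 regulators of the Cdkn2a and Cdkn2b locus and of p53, none passed by limma, and 3 were higher and 2 lower at an unadjusted p under 0.05. Bmi1, a Polycomb protein that represses the Cdkn2a locus, had the smallest p. It gave 1568, 1474, 1585 and 1491 in old mice 1, 2, 5 and 6, against 1140, 1060, 1181 and 1248 in young mice 3, 4, 7 and 8. All old mice were above all young mice, by 0.40 on the log2 scale (standard error 0.073, adjusted p = 0.0682 by limma). Ets2, a factor that can activate Cdkn2a, was at 0.28 (adjusted p = 0.169) and Chek1, a DNA damage kinase, at 0.35 (adjusted p = 0.222), each without overlap. Ezh2, the Polycomb methyltransferase, was at -0.27 (adjusted p = 0.218). The median of the list was 0.0060.

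The targets of the inhibitors were 9 CDKs and cyclins of G1 and S phase, and none passed by limma, with 2 higher and 0 lower at an unadjusted p under 0.05. Ccnd1, the cyclin D1 that activates CDK4 and CDK6, gave 5867, 4826, 6314 and 4655 in old mice 1, 2, 5 and 6, against 4328, 4316, 4491 and 4148 in young mice 3, 4, 7 and 8. The young mice were close together and every old mouse was above them (log2 fold change 0.31, adjusted p = 0.258). Ccnd3, cyclin D3, was at 0.18 (adjusted p = 0.287), also without overlap. Cdk2, the partner of cyclin E, was at -0.12 (adjusted p = 0.385), with every old mouse below every young mouse, and Cdk6 at -0.12 (adjusted p = 0.633). Of 10 pocket proteins and E2F factors none passed by limma, and 1, E2f6, a repressor, was higher at an unadjusted p under 0.05 (log2 fold change 0.22, adjusted p = 0.306). Rbl1, the gene of the pocket protein p107, was at 0.18, the repressor E2f7 at -0.37 and the activator E2f2 at 0.21 (adjusted p = 0.438, 0.561 and 0.575). Rbl1 was at 0.099 with old mouse 1 left out and 0.032 with its probe sets averaged. Leaving out 1 mouse moved E2f7 between -0.57 (old mouse 1) and -0.21 (young mouse 7), and gave 0.36 for E2f2 (young mouse 4).

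E2F target genes, which cells silence when the inhibitors act, were split in sign. Over the 20 that were measured, none passed by limma, 10 were positive and 10 negative on the log2 scale, and the median was -0.011. An unadjusted p under 0.05 was reached by 5 genes that were higher and 2 that were lower. The higher ones were Pcna, the sliding clamp of DNA polymerase, and 4 genes of the MCM helicase that opens replication origins. Pcna gave 3871, 3812, 3856 and 3868 in old mice 1, 2, 5 and 6, against 2823, 2925, 3330 and 3196 in young mice 3, 4, 7 and 8. All old mice were above all young mice, by 0.33 on the log2 scale (standard error 0.073, adjusted p = 0.106 by limma). Mcm6 gave 1896, 1062, 1335 and 1303 in old mice, against 794, 959, 795 and 761 in young mice (log2 fold change 0.73, adjusted p = 0.127). Mcm4 was at 0.46 (adjusted p = 0.150) and Mcm3 at 0.56 (adjusted p = 0.171), both without overlap, and old mouse 1 was the highest for all 3 MCM genes. Averaging the probe sets of Mcm6 gave 0.33, and leaving out probe sets whose names mark shared sequence gave 0.22 for Mcm3. Mcm5, at 0.75, and Cdk1, the mitotic kinase, at -0.54, overlapped between ages. These genes are named because the counts are small and were chosen after their values were seen. Ezh2, above, was the other lower gene.

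**Figure D3:**
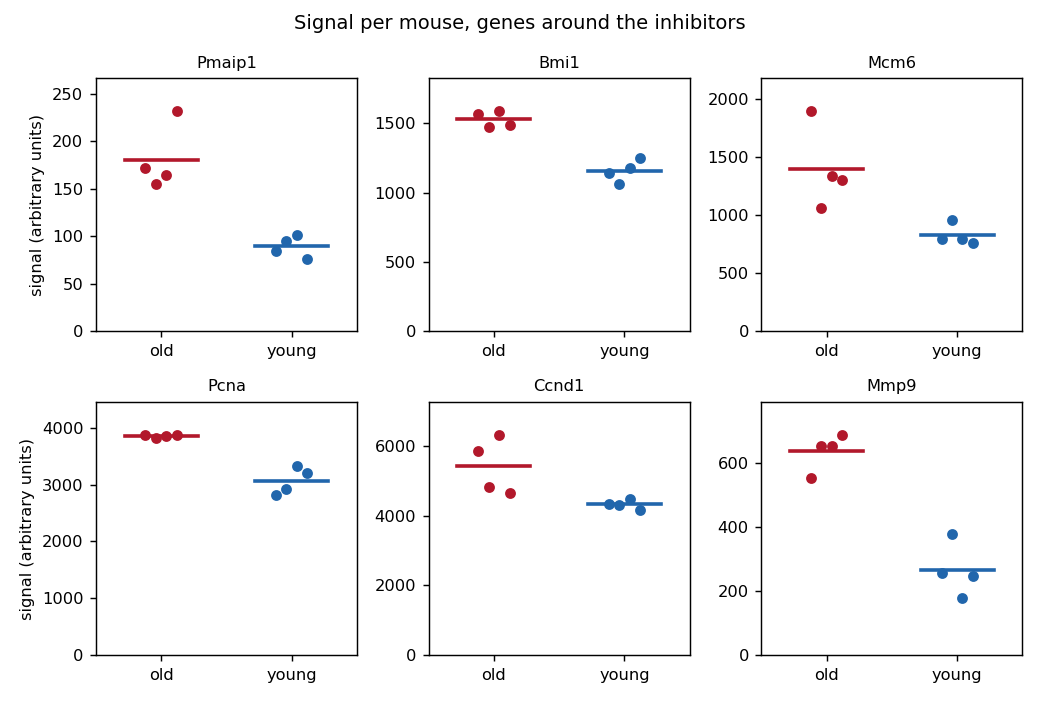
Signal (arbitrary units, linear axis from 0) of 6 genes around the inhibitors in 4 old (14 month) and 4 young (2 month) mice, with a point for each mouse and a line at each mean. All old mice lie above all young mice in every panel, and Pmaip1 (adjusted p = 0.0445) is the one that passed.

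Of 8 other lamina and chromatin genes, 6 were measured (Hmgb1 and Hmga1 were not), none passed by limma, and 2 were higher and 0 lower at an unadjusted p under 0.05. These were Lmnb2, the gene of lamin B2, at a log2 fold change of 0.92 from a dim probe set (adjusted p = 0.300), and Tmpo, a lamina-associated protein, at 0.21 (adjusted p = 0.307). Lmnb2 was at 0.58 with young mouse 8 left out, and averaging the probe sets of a gene gave 0.39 for Lmnb2 and 0.081 for Tmpo. Hmga2, a chromatin protein that represses Cdkn2a in neural stem cells, was at -0.42 (adjusted p = 0.419), and Emd, the gene of emerin, at 0.17 (adjusted p = 0.670). Emd was at 0.075 with old mouse 1 left out and 0.31 with old mouse 6 left out, and Hmga2 at -0.27 with old mouse 2 left out.

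Secreted factors of the senescence-associated secretory phenotype, the mixture of cytokines, proteases and growth factor binding proteins that senescent cells release, were set beside the inhibitors. Over the 29 that were measured, none passed by limma. An unadjusted p under 0.05 was reached by 13 that were higher and 2 that were lower. For 9 all old mice were above all young mice, and for 2 below. The differences were positive in 23 and negative in 6, with a median of 0.29, whereas 3 of the 9 genes with the inhibitors were positive, with a median of -0.024. Whether the lists differed was not tested.

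Among these factors Mmp9, a gelatinase abundant in neutrophils and macrophages, had the smallest p. It gave 555, 653, 654 and 689 in old mice 1, 2, 5 and 6, against 258, 379, 179 and 247 in young mice 3, 4, 7 and 8, with a log2 fold change of 1.31 (adjusted p = 0.0557 by limma), and it passed under 6 of 18 alternatives. The chemokine gene Ccl8 gave 641, 792, 1049 and 1640 in old mice, against 425, 368, 426 and 306 in young mice, or 1.36 on the log2 scale (adjusted p = 0.0956). The neutrophil chemokine gene Cxcl2 was at 0.58 (adjusted p = 0.0935) and Il1b, the gene of interleukin 1 beta, at 0.85 (adjusted p = 0.103). In all 4 genes the old mice lay above the young mice.

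Summed B and T cell markers were also higher in every old mouse. The summed signal of 7 B cell and plasma cell genes was 4797 to 16061 in old and 647 to 1282 in young mice. In old mice most of this sum was from Jchain, the joining chain of secreted antibodies, which passed (log2 fold change 4.48, adjusted p = 0.0343 by limma). For 6 of the 7 genes all old mice were above all young mice, and Cd79a overlapped. The summed signal of 6 T cell genes was 715 to 1150 in old and 472 to 606 in young mice. For 2 of them, Cd3g and Cd3d, all old mice were above all young mice, and Cd2, Cd3e, Cd4 and Cd8a overlapped. The sum over 7 myeloid genes, most of it from the macrophage lysozyme gene Lyz2, was 24939 to 30842 in old and 24381 to 27199 in young mice, which overlap. Single myeloid genes did not all overlap, and 4 of the 7 were higher at an unadjusted p under 0.05 with all old mice above all young mice, while Lyz2 was at 0.0084 on the log2 scale. S100a9, a calprotectin subunit abundant in neutrophils, gave 184, 213, 490 and 403 in old mice 1, 2, 5 and 6, against 59.3, 69.6, 90.3 and 84.6 in young mice 3, 4, 7 and 8 (log2 fold change 1.98, adjusted p = 0.0575 by limma). The other subunit, S100a8, was at 1.88 (adjusted p = 0.111), and the macrophage markers Adgre1 and Cd68 were at 0.23 and 0.27 (adjusted p = 0.207 and 0.279). No marker was at 0, but no probe set of any array was (lowest signal 0.106), so this does not show that each marker was detected. The sum over 5 smooth muscle genes was 64352 to 74285 in old and 72601 to 84223 in young mice, and over 5 cartilage genes 10034 to 11685 in old and 8194 to 15709 in young mice. Single genes of both lists did not all overlap. Of the cartilage genes Comp was higher (0.66) and Acan lower (-0.56) in all old mice. The smooth muscle genes Myh11 (-0.41) and Tagln (-0.18) were lower in all old mice. None of them passed by limma. The sums of thyroid (282 to 407 in old, 173 to 438 in young mice), thymus (590 to 1419 in old, 652 to 968 in young mice) and skeletal muscle markers (795 to 1098 in old, 905 to 1227 in young mice) overlapped. Most of the thymus sum was Cd1d1, and Rag1, a recombinase gene of developing lymphocytes, was listed at 46.2, 2.19, 17.5 and 429 in old mice 1, 2, 5 and 6, against 2.80 in young mouse 4 and under 1 in the other young mice (adjusted p = 0.208). Old mouse 6 stood apart there, and it was also the highest of the 8 mice for Jchain and for the B and T cell genes Ms4a1 (281) and Cd3g (340). The part of these cells in the signal of the inhibitors or of the secreted factors was not tested.

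**Figure D4:**
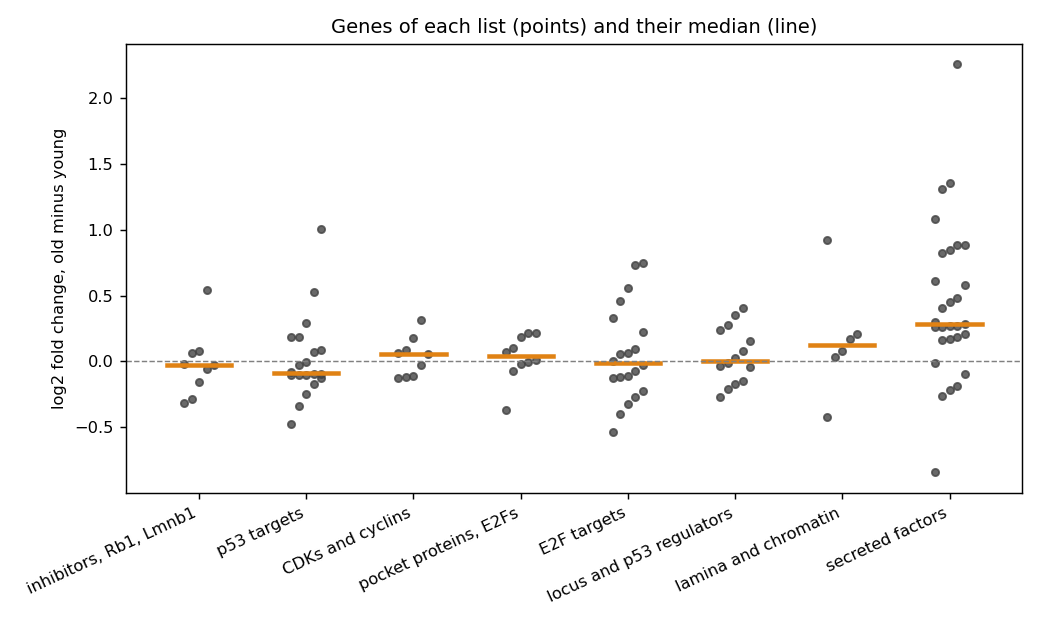
Log2 fold change (old minus young, y axis) of each measured gene of 8 lists, with a point for each gene and an orange line at each list's median. The 9 genes with the inhibitors have a median of -0.024 and the 29 secreted factors one of 0.29.

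The genes whose profile over the 8 mice was most like that of Cdkn1a and of Cdkn1c were sought among 12367 genes, by the root mean square difference of standardised log2 signals, whose median over genes was 1.35. For Cdkn1a they were Dpyd (0.219), Dimt1 (0.257), Znrf3 (0.268), Ugp2 (0.295) and Klk13 (0.348), with log2 fold changes of 0.020 to 0.21. For Cdkn1c they were Capza2 (0.216), Rrp8 (0.219), Rapgef6 (0.222), the proto-oncogene Myc (0.223) and Sgms1 (0.229). Among these Myc had a log2 fold change of 0.67 (adjusted p = 0.101 by limma), Rrp8 one of 0.36 and Capza2 one of 0.042. This likeness is a description over 8 mice and carries no test.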

How the data were processed

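Total RNA of the distal trachea and carina of 4 old and 4 young female mice was labelled with biotin and hybridised to 1 array each. The deposited values are array intensity, a linear signal per probe set from the authors. The methods name Partek Genomics Suite 6.5 with robust multichip analysis, but every array had the same trimmed mean of 500.002 (2% trimmed), so the normalization behind these values is not settled. The number of arrays limits the precision. From 45101 probe sets, 64 Affymetrix controls were left out. The log2 signal was compared between ages with limma 3.58.1 in R 4.3.3 (lmFit and eBayes, two-sided), with Benjamini-Hochberg adjustment over all 45037 probe sets or, at the brightest probe set of each gene, over 18193 genes. Exact permutation tests used the 70 divisions of 8 mice. In the platform annotation, 34945 probe sets had 1 gene symbol, 932 several and 9160 none. Member genes were given with every probe set, and each related list by at most 4 genes with the smallest unadjusted p. Mcm5, Cdk1 and some of the cell type markers were named outside this rule. The members and lists were chosen with earlier results of these data known. The genes most like Cdkn1a and Cdkn1c were those of mean log2 signal above 7. Alternatives left out each mouse or changed the normalization, variance prior, signal filter, floor, weights or probe set rule. The fit was tested on simulated data.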

Additional observations from a re-analysis of the deposited data

Results flagged for a closer look

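In Cdkn1c, old mouse 6 had a signal of 1552.9, apart from the other old mice at 1742 to 1772. On the log2 scale the gap was 0.871 of the range of the old mice, past Dixon's 95% critical value for 4 samples. Of 26 groups of member values looked at in this way, this was the 1 that passed, and chance alone passes about 1 in 20. The signal of old mouse 6 was still above that of all 4 young mice.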

How the results depend on the processing

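No paired analysis was possible because old and young mice share no mouse number. Leaving out 1 mouse at a time gave 0 to 12 probe sets higher and 0 to 6 lower over the whole array, against 24 and 8 with all mice, and no member passed. The other counts, higher then lower in old, were 314 and 241 under a trended and robust prior, 0 and 0 without moderation of the variance, 270 and 227 over the brighter part, and 131 and 101 with signals under 32 raised to 32. They were 7 and 0 with a block for mice 1 to 4 and mice 5 to 8, 15 and 4 without probe sets ending in _x_at or _s_at, and 537 and 361 at a fold above 2 with an unadjusted p under 0.05. Among members, the trended prior gave 1 higher (Cdkn1c) and 1 lower (Cdkn1b), and the brighter part 1 higher (Cdkn1c). Without 1 mouse at a time the median of the members was -0.125 to -0.0010, Cdkn1a was at up to 0.12, and Cdkn2c, Rb1, Lmnb1 and Cdkn2a were at down to -0.072, -0.063, -0.16 and -1.02. Directions turned in Cdkn1a without old mouse 1 (-9.2e-05) or young mouse 3 (-0.0073), and in Cdkn2c without old mouse 1 (0.024) or young mouse 8 (0.013). They turned in Lmnb1 without old mouse 2 (0.031), old mouse 6 (0.0051) or young mouse 4 (0.054), in Rb1 without old mouse 5 (0.0047) or young mouse 4 (0.013), and in Cdkn2a without young mouse 8 (0.033). The dimmer probe set of Cdkn1b turned without old mouse 5 (0.028). Tnfrsf10b turned when its probe sets were averaged (0.15), which also moved Cdk2 (-0.33), Cdk6 (-0.0096), E2f6 (0.37), Ets2 (0.17) and Chek1 (0.16) by over 1.5 times. Among the members the same averaging moved Rb1 to -0.36, Cdkn1a to 0.17 and Lmnb1 to -0.11, also by over 1.5 times. Cdk6 was at -0.035 without old mouse 2. Cdkn1c stayed at 0.47 to 0.64 and Cdkn2d at -0.17 to -0.13 under all 18 alternatives. Cdkn1b stayed at -0.31 to -0.26 at its brightest probe set under 17 alternatives. With its 2 probe sets averaged Cdkn1b was at -0.21 (adjusted p over genes = 0.501 by limma). Adjusted over genes, Cdkn1c passed under the trended prior (0.0181) and over the brighter part (0.0285), and Cdkn1b under the trended prior (0.0291) and with the floor (0.0411). The causes were not tested.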
